A study of Mus musculus with 6 samples.

Results

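Retinoids are carried, taken up, oxidised, broken down and sensed by a small group of proteins, and 9 of their genes are described here in embryonic mouse hearts labelled as cardiomyocyte-specific double knockouts of RBPMS and RBPMS2. They are the carrier genes Rbp4, Crabp1 and Crabp2, the uptake receptor gene Stra6, the enzyme genes Aldh1a1, Aldh1a2 and Cyp26b1, and the receptor genes Rara and Rarb. The 9 were found by gene symbol among the 48709 genes of the deposited table, each symbol matched 1 row, and all 9 passed the filter on low values. They were selected on what the genes encode and with their values in this same double knockout to control comparison in view, so their differences are given as a description. Their adjusted p-values come from a fit over all genes and are no independent support.

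Hearts of 2 genotypes on the C57BL6/J strain were profiled by stranded polyA RNA sequencing, with 3 libraries each. Double knockouts were RBPMS flox/flox RBPMS2 flox/flox and positive for a Cre transgene labelled XML, which the study's design text describes as cardiomyocyte specific. Controls were littermates with RBPMS flox/flox RBPMS2 flox/flox and no Cre named in the label. Both groups thus carried the floxed alleles of Rbpms and Rbpms2, which encode RNA-binding proteins. No group had Cre with unfloxed alleles, so Cre itself and the loss of the genes cannot be told apart. The sources used here do not give the promoter of the transgene, the embryonic age, or whether hearts were pooled. They do not say that each library came from its own heart either, and the spread behind each p-value is therefore that between libraries. It may in part be technical, though the libraries numbered 3 differed from the others of their genotype in sex pattern, as given below.

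Retinol circulates bound to its serum carrier, enters cells and is oxidised first to retinaldehyde and then to retinoic acid. Retinoic acid binds nuclear receptors of the RAR family, which sit on DNA with RXR partners at direct repeats of a short hexamer, and CYP26 enzymes clear it. In the embryonic heart the pathway is known for patterning the inflow end and the atria, and for signals from the epicardium, the outer cell layer, to the growing ventricular wall.

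The promoter of Rarb is shown because it holds the classical retinoic acid response element, and Rarb level is a common readout of retinoic acid in cells. The promoter of Rbp4 is shown because Rbp4 was the member that differed between the genotypes. Each runs 5′ to 3′ on the gene's strand, from 250 bases before to 50 bases after a RefSeq start site (GRCm38.p6). Capitals mark a direct repeat of hexamers 5 bases apart (DR5) in Rarb and a TATAAA box in Rbp4.
Rarb, chr14:16575427-16575726, minus strand: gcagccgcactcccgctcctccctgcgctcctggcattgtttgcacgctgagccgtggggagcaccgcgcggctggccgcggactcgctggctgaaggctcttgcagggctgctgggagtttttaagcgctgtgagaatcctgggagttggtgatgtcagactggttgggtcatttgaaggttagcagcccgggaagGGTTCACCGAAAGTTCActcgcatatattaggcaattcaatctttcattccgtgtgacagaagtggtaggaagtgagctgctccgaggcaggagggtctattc
Rbp4, chr19:38124762-38125061, minus strand: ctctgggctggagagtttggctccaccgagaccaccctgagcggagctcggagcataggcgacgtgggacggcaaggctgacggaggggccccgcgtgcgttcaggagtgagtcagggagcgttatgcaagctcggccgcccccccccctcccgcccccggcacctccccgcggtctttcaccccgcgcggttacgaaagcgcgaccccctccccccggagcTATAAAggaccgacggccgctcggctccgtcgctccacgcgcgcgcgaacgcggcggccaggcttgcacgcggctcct

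The hexamers searched, on both strands, were the consensus AGGTCA together with the variant AGTTCA, the variant GGGTCA and the further variant GGTTCA, as direct repeats 1, 2 or 5 bases apart. The table held 16 promoters for 8 of the members, and Crabp2 was not among them. Of these 16, the Rarb promoter was the 1 with such a repeat. Its DR5, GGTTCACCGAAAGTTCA, began 53 bases before the start site. A DR5 of these hexamers was present in 32 of 32851 mouse promoters of the same length (0.0974%). The Rbp4 promoter printed above held none of the 4 hexamers, and its TATAAA began 28 bases before the start site. A promoter at a second Rbp4 start site upstream, chr19:38125272-38125571, held no TATAAA and 1 hexamer, TGACCC on the gene's strand, 53 bases before that start. At least 1 of the 4 hexamers was present in 43.7% of promoters. TATAAA on either strand was present in 13.6% of promoters. A match describes the letters in the window and not binding.

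Values are normalised read counts as deposited, and a mean ± SD covers the 3 libraries of a genotype. Log2 fold changes subtract the control mean from the double knockout mean of log2(value + 1), which understates the change of low genes, and come with SE and limma's adjusted p over 26747 genes. Library totals ran from 19770390 to 20215282 on this scale. An estimated 18760458 to 21993003 reads per library lie behind them, so 1 unit is close to 1 read, and members below 100 carry the spread of small counts. Rbpms fell to 697 ± 25.6 in double knockouts, against 3787 ± 210.5 in controls (-2.44 ± 0.08, limma adjusted p = 6.83e-13), and Rbpms2 fell to 1454 ± 211, against 2577 ± 136 (-0.83 ± 0.10, limma adjusted p = 2.92e-05; 0.142 without both libraries numbered 3). Both genes were thus still detected in every double knockout heart library, and the values sum all exons, so they do not show the deleted part by itself. Xist, transcribed from the inactive X chromosome, was at 20 in double knockout 3 and 6 in control 3, and at 19501 to 25229 in the other 4 libraries. The pair of libraries numbered 3 thus differed from the others in the sex pattern, once in each genotype. Deviations of expression also followed GC content differently in each library: Spearman's rho over 11905 genes was 0.127, -0.181 and -0.586 in double knockouts 1 to 3, and 0.278, 0.224 and 0.400 in controls 1 to 3. The rho of every double knockout was thus below that of every control, and Rbp4 is also given below with this trend removed.

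Of the 9 members, 1 was called higher in double knockouts (Rbp4) and 0 were called lower at a limma adjusted p under 0.05. Over all genes tested, 2.31% were called higher and 2.55% lower, 4.86% in either direction. Without adjustment 1 member was lower at p under 0.05 (Aldh1a1), and limma-voom called 0 lower. At that unadjusted limma p, 2601 of all 26747 genes tested were higher and 2407 lower. These are the background for the unadjusted counts of the main fit below. The groups did not overlap for Rbp4 alone among the members, while they did not overlap for 21.7% of all genes tested. The median of the 9 log2 fold changes was -0.18, the value of Rara, against 0.015 for all genes tested. With each library's trend with GC content and length removed, Rara was at -0.061 (limma adjusted p = 0.702). As the GC trend also differed between the genotypes, the parts of trend and genotype in this value cannot be told apart. Closest to the threshold on either side were Rbp4 (limma adjusted p = 0.00072) and Aldh1a1 (limma adjusted p = 0.0852).

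**Figure D1:**
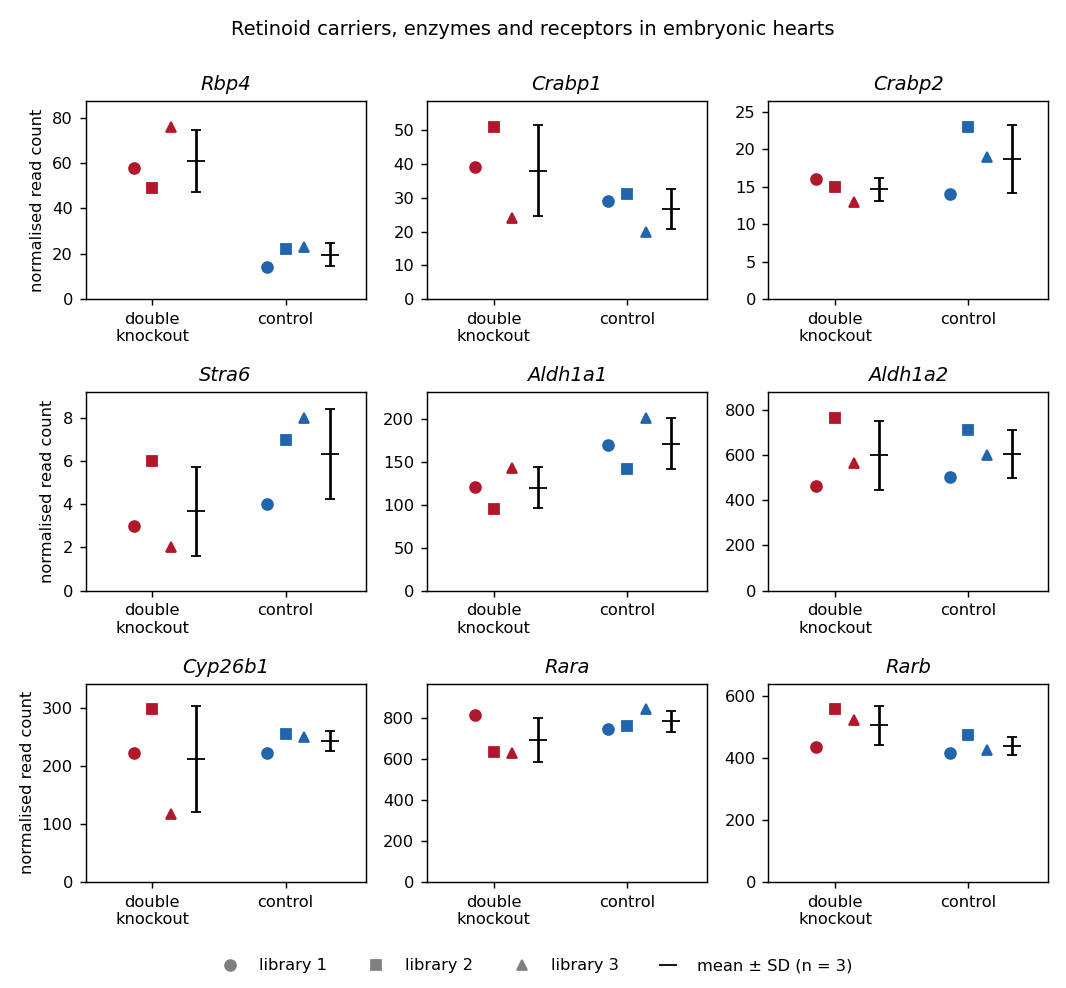
Normalised read count (y axis, from 0) of each member in the 3 double knockout libraries (left, red) and the 3 control libraries (right, blue), with library number as the marker shape and mean ± SD in black. The groups are apart for Rbp4 (49 to 76 against 14 to 23) and overlap in the other 8 panels.

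Rbp4 (ENSMUSG00000024990; chromosome 19, 38116629 to 38125281, minus strand, mm10) encodes the serum carrier of retinol, which the liver secretes. It had 58, 49 and 76 in double knockouts 1 to 3, against 14, 22 and 23 in controls 1 to 3. The lowest double knockout library, at 49, lay above the highest control, at 23. Rbp4 averaged 61 ± 13.7 in double knockouts and 19.7 ± 4.93 in controls, a ratio of 3.10 between the means. The log2 fold change was 1.59 ± 0.25 (limma adjusted p = 0.00072), with a 95% interval of 1.06 to 2.12, or 2.09-fold to 4.35-fold. The call held with each of the 6 libraries left out in turn, at 1.38 to 1.74 (limma adjusted p = 0.00171 to 0.0241). After removal of each library's trend with GC content and exon length, the log2 fold change was 1.72 (limma adjusted p = 0.000997). Without both libraries numbered 3 the log2 fold change was 1.55 and the call was lost (limma adjusted p = 0.161), in a fit of 2 libraries against 2.

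Since the liver is the main source of RBP4 in the adult, a list of hepatocyte genes was read beside Rbp4. Its other 11 genes summed to 94, 122 and 101 in double knockouts 1 to 3, against 108, 108 and 84 in controls 1 to 3. These sums were low and overlapped between genotypes, and the part of liver cells in the Rbp4 values was not tested. Of the 7 of these genes that passed the filter, 0 were called higher and 0 lower by limma, 0 in either direction without adjustment, and 0 by limma-voom. Apob, an apolipoprotein and the most abundant of the 11, had 33, 44 and 42 in double knockouts 1 to 3, against 51, 48 and 18 in controls 1 to 3. Alb, albumin, was at 1 in double knockout 3 and at 0 in the other 5 libraries. Ttr, transthyretin, the partner of RBP4 in blood, had 11, 12 and 7 in double knockouts 1 to 3, against 11, 7 and 13 in controls 1 to 3 (-0.036 ± 0.37, limma adjusted p = 0.973).

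The genes nearest to Rbp4 in their pattern over the 6 libraries were sought among 11581 protein-coding genes whose mean reached 50 in a genotype, by the root mean square difference of centred log2 values. Nearest was Murc, which encodes a protein of muscle caveolae, at 0.15 on the log2 scale. Murc had 156, 131 and 206 in double knockouts 1 to 3, against 50, 58 and 57 in controls 1 to 3. Next was Cpa4, which encodes a carboxypeptidase, at 0.16 on the log2 scale. Cpa4 had 130, 120 and 161 in double knockouts 1 to 3, against 41, 63 and 54 in controls 1 to 3. In all 3 genes double knockout 3 was the highest library and double knockout 2 the lowest of its genotype, and control 1 was the lowest library. Murc and Cpa4 were picked for their likeness to Rbp4 over these same libraries, so a shared order follows from that choice.

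Stra6 (ENSMUSG00000032327; chromosome 9, 58063788 to 58153996, plus strand) encodes the membrane receptor that takes up retinol from RBP4. It was close to the limit of detection, with 3, 6 and 2 in double knockouts 1 to 3, against 4, 7 and 8 in controls 1 to 3. The groups overlapped, and the log2 fold change was -0.70 ± 0.47 (95% interval -1.69 to 0.29, limma adjusted p = 0.453). A difference was not detected at this depth, and differences within that interval remain possible.

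Crabp1 and Crabp2 encode the cellular retinoic acid-binding proteins, and CRABP2 is known to hand retinoic acid to the receptors in the nucleus. Crabp1 (ENSMUSG00000032291; chromosome 9, 54764748 to 54773110, plus strand) had 39, 51 and 24 in double knockouts 1 to 3, against 29, 31 and 20 in controls 1 to 3. Double knockout 3 lay below 2 of the controls, so the groups overlapped (0.46 ± 0.28, 95% interval -0.13 to 1.04, limma adjusted p = 0.402). Crabp2 (ENSMUSG00000004885; chromosome 3, 87948666 to 87953376, plus strand) had 16, 15 and 13 in double knockouts 1 to 3, against 14, 23 and 19 in controls 1 to 3. Its groups overlapped as well (-0.31 ± 0.30, 95% interval -0.93 to 0.32, limma adjusted p = 0.617).

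**Figure D2:**
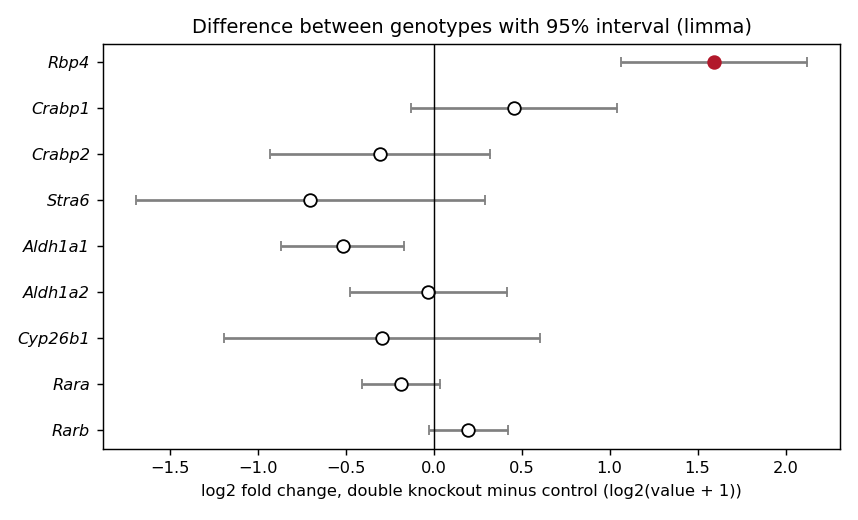
Log2 fold change, double knockout minus control, of each member on the log2(value + 1) scale (x axis), with limma's 95% interval as the bar; the filled red point is past an adjusted p of 0.05. Rbp4 is at 1.59, the interval of Aldh1a1 (-0.87 to -0.17) lies below 0 without passing the adjustment, and the other 7 intervals include 0.

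Aldh1a1 and Aldh1a2 encode retinaldehyde dehydrogenases, which make retinoic acid, and ALDH1A2 is the main source of retinoic acid in the early embryo. Aldh1a1 (ENSMUSG00000053279; chromosome 19, 20492715 to 20643465, plus strand) had 121, 95 and 143 in double knockouts 1 to 3, against 170, 142 and 201 in controls 1 to 3. Double knockout 3 and control 2 were 1 unit apart and alone made the groups overlap. Aldh1a1 averaged 119.7 ± 24.0 in double knockouts and 171 ± 29.5 in controls, with a log2 fold change of -0.52 ± 0.17 (95% interval -0.87 to -0.17). It did not pass the adjustment over all genes (limma adjusted p = 0.0852), and it did not pass with any library left out, at -0.65 to -0.36 (limma adjusted p = 0.0616 to 0.397). Of the 75-base windows of its transcripts, 1.01% also occur in its neighbour gene Aldh1a7, which had 14 to 23 in double knockouts and 16 to 25 in controls. Reads in those windows cannot be assigned with certainty, and the same search found 0 shared windows in the other 8 members.

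Aldh1a2 (ENSMUSG00000013584; chromosome 9, 71215789 to 71296243, plus strand) had 466, 766 and 567 in double knockouts 1 to 3, against 502, 714 and 600 in controls 1 to 3. It averaged 599.7 ± 153 in double knockouts and 605 ± 106 in controls, and the groups covered nearly the same range (-0.029 ± 0.19, 95% interval -0.48 to 0.42, limma adjusted p = 0.954). The interval spans 0.718-fold to 1.34-fold. Library 2 was the highest and library 1 the lowest in each genotype. Aldh1a2 is a marker of the epicardium in the heart, and the other 13 genes of the epicardial list summed to 9315, 11203 and 9639 in double knockouts 1 to 3, against 8799, 10381 and 9885 in controls 1 to 3. Library 2 was likewise highest and library 1 lowest in each genotype in that sum. In such bulk samples fewer cells of a type and less RNA per cell cannot be told apart. Of those 13 genes 3 rose (Krt19, Krt8 and Muc16) and 1 fell (Lrrn4). Without adjustment 5 of the 13 were higher and 3 lower, and limma-voom called 3 higher and 1 lower. Krt19, a keratin of simple epithelia, rose to 1357, 1409 and 1419 in double knockouts 1 to 3, against 864, 1052 and 932 in controls 1 to 3 (limma adjusted p = 0.000859). Lrrn4, a mesothelial membrane protein gene, fell to 627, 793 and 634 in double knockouts 1 to 3, against 853, 963 and 868 in controls 1 to 3 (limma adjusted p = 0.0309). Wt1, a transcription factor gene that defines the epicardium, was at -0.32 on the log2 scale (limma adjusted p = 0.10), with overlapping groups. The most abundant of the list, Upk3b and Tbx18, were at -0.25 (limma adjusted p = 0.188) and 0.13 (limma adjusted p = 0.517) on the log2 scale.

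Cyp26b1 (ENSMUSG00000063415; chromosome 6, 84571414 to 84593908, minus strand) encodes a cytochrome P450 that breaks down retinoic acid. It had 222, 298 and 117 in double knockouts 1 to 3, against 223, 255 and 251 in controls 1 to 3. The double knockouts held both the highest and the lowest library, and their SD of 90.9 compares with 17.4 in controls. The log2 fold change was -0.29 ± 0.35 (95% interval -1.19 to 0.61, limma adjusted p = 0.710), and without double knockout 3 it was 0.084 (limma adjusted p = 0.812). Within the double knockouts the 10 genes of fibroblasts and valve mesenchyme took the same order, with sums of 49627, 67711 and 43320 in libraries 1 to 3. In controls 1 to 3 these sums were 47673, 54264 and 43222, an order that Cyp26b1 did not take there. Control 3 had nearly the same sum as double knockout 3, with Cyp26b1 at 251 in control 3 and 117 in double knockout 3. Nerve and neural crest genes took the order of Cyp26b1 in each genotype, with sums of 375, 423 and 299 in double knockouts 1 to 3, against 362, 421 and 388 in controls 1 to 3. Crabp1 took the order of Cyp26b1 in the double knockouts but not in the controls. The part of these cells in either value was not tested.

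**Figure D3:**
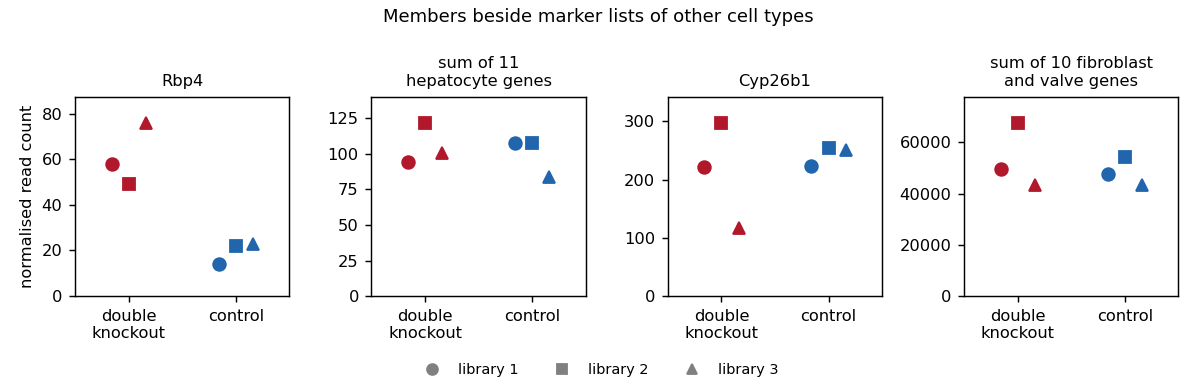
Normalised read count (y axis, from 0) per library of Rbp4, the summed hepatocyte list without Rbp4, Cyp26b1 and the summed fibroblast and valve list, with double knockouts left (red), controls right (blue) and library number as the marker shape. The hepatocyte sums overlap between genotypes (94 to 122 against 84 to 108), and the Rbp4 values do not. Double knockout 3 is the lowest double knockout library for Cyp26b1 (117) and for the fibroblast and valve sum (43320). The part of these cells in either member was not tested.

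Rara and Rarb encode retinoic acid receptors, transcription factors that act once retinoic acid is bound. Rara (ENSMUSG00000037992; chromosome 11, 98927818 to 98974942, plus strand) had 815, 634 and 628 in double knockouts 1 to 3, against 745, 761 and 840 in controls 1 to 3. Double knockouts 2 and 3 lay below every control and double knockout 1 lay among them (-0.18 ± 0.11, 95% interval -0.40 to 0.04, limma adjusted p = 0.366). Rarb (ENSMUSG00000017491; chromosome 14, 16430839 to 16819156, minus strand), whose promoter with the DR5 is printed above, had 437, 558 and 523 in double knockouts 1 to 3, against 418, 474 and 426 in controls 1 to 3. Double knockouts 2 and 3 lay above every control, and double knockout 1 lay between controls 3 and 2. Rarb averaged 506 ± 62.3 in double knockouts and 439 ± 30.3 in controls, which was not past the threshold (0.20 ± 0.11, 95% interval -0.03 to 0.42, limma adjusted p = 0.337). Of the exon bases of Rarb, 34.1% overlap exons of Top2b, a topoisomerase gene on the opposite strand with 4301 to 5344 in double knockouts and 3919 to 4302 in controls. The strand setting of the authors' counting is not given in the sources used here, so the level of Rarb is uncertain to that extent.

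Divided by the exon length of the gene, the levels of the members spanned a wide range within each genotype. In double knockouts the mean normalised read count per kb was 265 for Aldh1a2, 159 for Rara and 96.1 for Rarb, and in controls it was 267 for Aldh1a2, 179 for Rara and 83.4 for Rarb. These 3 genes led in that order in each genotype, with no overlap between neighbours over the libraries. Below them in double knockouts came Crabp1 at 47.4, Rbp4 at 45.4, Cyp26b1 at 39.7 and Aldh1a1 at 24.2 per kb, and each neighbouring pair among these 4 overlapped. In controls the order was Cyp26b1 at 45.4, Aldh1a1 at 34.6, Crabp1 at 33.3 and Rbp4 at 14.6 per kb, followed by Crabp2 at 14.1 per kb, whose range overlapped that of Rbp4. In double knockouts Crabp2 was at 11.1 per kb, with no library within the range of Rbp4. Stra6 was last in each genotype, at 0.629 per kb in double knockouts and 1.09 per kb in controls.

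**Figure D4:**
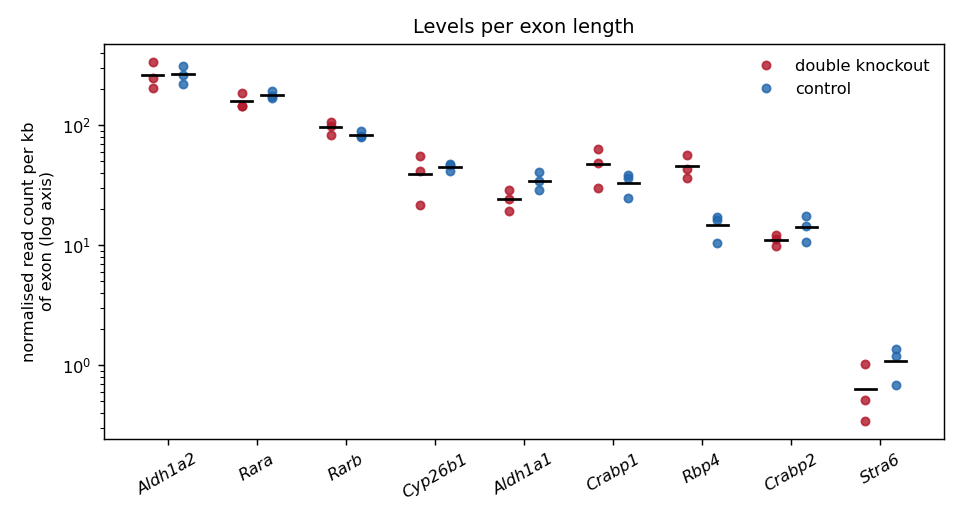
Normalised read count per kb of exon (y axis, log scale) of each member in double knockouts (left of each pair, red) and controls (right, blue), with 1 point per library and the mean as a black line, ordered by the control mean. Aldh1a2, Rara and Rarb lead in each genotype, and Rbp4 lies at 45.4 per kb in double knockouts and at 14.6 in controls.

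The rest of the pathway was read from 5 lists of 74 different genes, of which 65 are not members and 62 of these passed the filter on low values. Among the 62, 1 gene rose (Btg2) and 4 fell (Rdh13, Ncoa1, Tgm2 and Nr2f1), with a median log2 fold change of -0.054, against 0.015 for all genes tested. The groups did not overlap for 6 of them on the higher side and 10 on the lower side, where 11.1% and 10.6% of all genes tested did not overlap. Without adjustment 7 of the 62 were higher and 10 lower, and limma-voom called 2 higher and 3 lower.

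Among the other 9 carriers and uptake genes, 0 rose and 0 fell by limma, with 0 higher and 1 lower without adjustment and 0 in either direction by limma-voom. Fabp5, a fatty acid carrier that also binds retinoic acid, had 2532, 3711 and 3015 in double knockouts 1 to 3, against 3140, 2710 and 2941 in controls 1 to 3 (0.060, limma adjusted p = 0.818). Scarb1, a scavenger receptor that takes up carotenoids, had 1577, 1224 and 1296 in double knockouts 1 to 3, against 1504, 1540 and 1575 in controls 1 to 3 (-0.18, limma adjusted p = 0.320). The groups overlapped in both.

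Among 18 tested genes of retinol storage, oxidation and reduction, 1 fell and 0 rose by limma (3 higher and 1 lower without adjustment, 0 in either direction by limma-voom). Rdh13, a retinol dehydrogenase gene of mitochondria, fell to 719, 664 and 718 in double knockouts 1 to 3, against 875, 886 and 851 in controls 1 to 3. Its call (-0.31 ± 0.09, limma adjusted p = 0.0420) was lost whichever of the 6 libraries was left out (limma adjusted p = 0.0520 to 0.187). Adh5 (-0.072, limma adjusted p = 0.682) and Rdh11 (0.041, limma adjusted p = 0.846), the most abundant of the others, had overlapping groups. The other 4 genes of retinoic acid synthesis and breakdown, Aldh1a3, Aldh8a1, Cyp26a1 and Cyp26c1, summed to 5 to 16 in double knockouts and 10 to 13 in controls, and 0 of them were called by limma, without adjustment or by limma-voom.

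Among the other 11 receptors and cofactors, 0 rose and 1 fell by limma (1 higher and 4 lower without adjustment, 1 higher and 1 lower by limma-voom). Ncoa1, a coactivator that nuclear receptors recruit, fell to 718, 538 and 679 in double knockouts 1 to 3, against 813, 887 and 869 in controls 1 to 3 (-0.42 ± 0.10, limma adjusted p = 0.0252). This call held without double knockout 1 and was lost without any other library (limma adjusted p up to 0.144). Ncor1, a corepressor, was at 0.034 (limma adjusted p = 0.876) and Ncoa2, a further coactivator, at 0.014 (limma adjusted p = 0.954) on the log2 scale.

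Genes known as targets of retinoic acid in other settings moved in both directions. Of 24 tested genes that are not members, 1 rose and 2 fell, and the median log2 fold change was 0.11. Without adjustment 4 of the 24 were higher and 4 lower, and limma-voom called 1 higher and 2 lower. Tgm2, a transglutaminase gene induced by retinoic acid in many cells, fell to 5230, 4534 and 4790 in double knockouts 1 to 3, against 8390, 8551 and 8519 in controls 1 to 3. The groups were far apart (-0.81 ± 0.08, limma adjusted p = 6.03e-06), and the call held with each library left out (limma adjusted p = 3.26e-05 to 0.000834). Without both libraries numbered 3 the log2 fold change was -0.80 and the call was lost (limma adjusted p = 0.0642). Nr2f1, an orphan nuclear receptor gene of the atria, fell to 72, 82 and 62 in double knockouts 1 to 3, against 105, 166 and 139 in controls 1 to 3 (-0.90 ± 0.18, limma adjusted p = 0.00567). Its call was lost without double knockout 3 or control 3 (limma adjusted p up to 0.0691). The Nr2f1 call was also lost without limma's robust option (limma adjusted p = 0.0835) and without both libraries numbered 3 (limma adjusted p = 0.382). Btg2, an antiproliferative gene, rose to 883, 1013 and 917 in double knockouts 1 to 3, against 758, 772 and 719 in controls 1 to 3 (0.32 ± 0.09, limma adjusted p = 0.0439), and this call held without double knockout 1 and was lost without any other library (limma adjusted p up to 0.227). The most abundant of the others, Ets2 (0.074, limma adjusted p = 0.682) and Meis2 (0.029, limma adjusted p = 0.896), had overlapping groups.

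**Figure D5:**
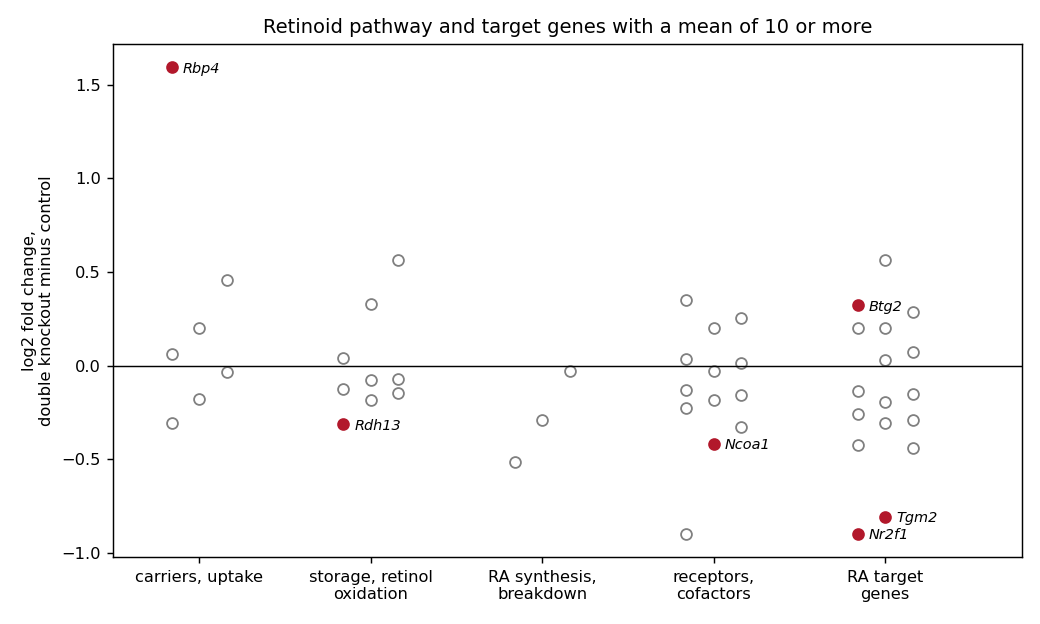
Log2 fold change, double knockout minus control (y axis), of 44 pathway and target genes with a mean of at least 10, by role (x axis; RA, retinoic acid), with genes past a limma adjusted p of 0.05 filled and named; genes in more than 1 list are drawn in each. Rbp4 stands at 1.59, and Tgm2 (-0.81) and Nr2f1 (-0.90) are the lowest named points.

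Marker lists of the cells in these libraries were read beside these genes. Cardiomyocyte genes summed to 619173 to 701933 in double knockouts and 758693 to 830340 in controls, where 1 of 12 rose (Pln) and 2 fell (Myh6 and Actc1). Without adjustment 1 of the 12 was higher and 4 lower, and limma-voom called 1 higher and 2 lower. Myh6, an abundant myosin heavy chain gene, fell to 73150 to 90131 in double knockouts, against 132314 to 149354 in controls, and Actc1, cardiac actin, fell to 124462 to 136201 in double knockouts, against 178253 to 193011 in controls. These 2 genes carried most of the lower sum, while Myh7, the most abundant of the list, was at 0.024 on the log2 scale (limma adjusted p = 0.914). Atrial genes, which include Nr2f1, summed to 72138 to 74899 in double knockouts and 81284 to 100688 in controls, and 5 of 14 fell and 0 rose by limma (1 higher and 9 lower without adjustment, 0 higher and 5 lower by limma-voom). Smooth muscle and pericyte genes summed to 18872 to 22251 in double knockouts and 44752 to 49312 in controls. Of these 9 genes, 2 fell (Acta2 and Cnn1, of the contractile apparatus) and 0 rose. Without adjustment 1 was higher and 3 lower, and limma-voom called 0 higher and 2 lower. Acta2, smooth muscle actin, carried most of the difference in that sum, at 4673 to 6843 in double knockouts and 24630 to 28547 in controls. The atrial and the smooth muscle and pericyte sums were lower in double knockouts with no overlap, as were Tgm2 and Nr2f1, and their part in those values was not tested. Endothelial genes summed to 25396 to 30574 in double knockouts and 23449 to 28385 in controls (1 of 10 rose). Without adjustment 2 of the 10 were higher and 0 lower, and limma-voom called 1 higher and 0 lower. Erythroid genes summed to 123417 to 169452 in double knockouts and 58161 to 161234 in controls, nerve and neural crest genes to 299 to 423 in double knockouts and 362 to 421 in controls, and lung and foregut genes to 14 to 28 in double knockouts and 9 to 28 in controls. In these 3 lists and in the fibroblast and valve list 0 genes were called by limma, without adjustment or by limma-voom.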

How the data were processed

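The deposited table holds 1 column of values per library, 6 in all. Per the submitters' processing notes, the tools were STAR 2.4.2a and featureCounts 1.5.0, with Trimmomatic, DESeq and DESeq2 also listed, and the build was mm10. The sources used here give neither the annotation nor the strand setting. The deposited values form a score, taken here as read counts multiplied by a factor per library and rounded: of the whole numbers 1 to 399, double knockout 1 lacked 21, control 2 lacked 3 and control 3 lacked 19. The other 3 libraries lacked 0, and their factors rest on the estimate below. Single reads cannot be recovered, so a count test, planned only for raw counts, was not used. The fit was the planned one, limma 3.58.1 (R 4.3.3) on log2(value + 1), with variance trend and robust moderation. It covered genes with a mean of at least 1 in a genotype, and was two-sided and Benjamini-Hochberg adjusted. Each factor, and so the reads per library, was estimated by likelihood from how often each low value occurs. Coordinates, exon lengths and GC content come from GENCODE M21 (GRCm38, the assembly of mm10), which held 99.3% of the gene identifiers. Promoters come from RefSeq. The fit was tested on simulated data, where it recovered 65.7% of 1.5-fold, 86.6% of 2-fold and 100% of 4-fold changes, with 2.33% of calls false. The simulation planted no changes in scarce genes and held no GC trend or sex difference, so it does not cover these. Its spread was set by a formula, equal for all genes of a given mean, and was not estimated from these libraries. The 2.33% is therefore not the share of false calls in these data.

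The members, lists and tests were chosen with earlier results of these data known. Named were the members, the deleted genes, pathway genes past the threshold, the 2 most abundant others of each list, and the 2 genes nearest to a called member. Of the marker lists, sums are given, with single genes where a member is read beside them. Alternatives were scaling, filter, pseudocount, voom weights, moderation, threshold, replicate block, left-out libraries, both libraries numbered 3 left out, and the GC and length trend removed.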

Additional observations from a re-analysis of the deposited data

How the results depend on the processing

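Over 18 alternatives Rbp4 stayed higher in double knockouts, at 1.38 to 1.74, and kept its call in 17. Without the robust option that call was close to the threshold (limma adjusted p = 0.0432). Without both libraries numbered 3, limma called 0 members, 0 pathway genes higher and 0 lower (without adjustment 1 member was higher and 1 lower, and 5 pathway genes were higher and 7 lower), and 14 genes higher and 24 lower in all. In that fit 1311 of all genes were higher and 1375 lower at an unadjusted limma p under 0.05. Aldh1a1 was called lower with no filter (limma adjusted p = 0.0259) and with the replicate block (limma adjusted p = 0.0409), so that 1 member was lower there; its log2 fold change was below 0 in all 18. The sign changed for 2 members: Aldh1a2 with libraries left out in turn (-0.22 to 0.14; 0.14 without double knockout 1 and 0.10 without control 2) and with the GC and length trend removed (0.025), and Cyp26b1 with libraries left out in turn (-0.59 to 0.084; 0.084 without double knockout 3) and without both libraries numbered 3 (0.11), the causes of which were not tested.

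Among pathway genes with the 9 members included, 2 were higher and 4 lower. This became 1 higher with trimmed-mean scaling, 8 lower with no filter, 1 higher and 1 lower without the robust option, 1 higher and 2 lower at an adjusted p under 0.01, and 1 to 2 higher and 1 to 5 lower with libraries left out in turn. Over all genes, 618 were higher and 681 lower; these became 963 higher with no filter, 144 and 206 without the robust option, 225 and 290 at an adjusted p under 0.01, and 186 to 608 and 234 to 739 with libraries left out in turn. A filter at a mean of 10 removes Stra6 from the fit.

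The replicate block gave 674 genes higher and 681 lower, with 1 pathway gene higher. Deviations of same-numbered libraries correlated at 0.0517, 0.0697 and 0.329 over 13805 genes for numbers 1 to 3. Double knockout 1 correlated best with control 2 (0.170) and double knockout 2 with control 1 (0.171), so numbers 1 and 2 do not pair the libraries. The libraries numbered 3, which share the sex pattern, correlated best with each other. As pairing did not hold for every number, the block together with the GC correction was not run. With so few reads, differences in Stra6, Crabp1 and Crabp2 smaller than their intervals were not detectable.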

Other observations

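Several scarce genes of the pathway lists, chosen after their values were seen, had groups that did not overlap without passing the adjustment. Dhrs9, a retinol dehydrogenase gene, had 5, 3 and 8 in double knockouts 1 to 3, against 0, 2 and 1 in controls 1 to 3 (limma adjusted p = 0.0835). Adh1, an alcohol dehydrogenase gene, had 7, 10 and 8 in double knockouts 1 to 3, against 3, 3 and 5 in controls 1 to 3 (limma adjusted p = 0.189). Rarres1, named for its response to retinoic acid receptors, had 10, 12 and 16 in double knockouts 1 to 3, against 6, 7 and 5 in controls 1 to 3 (limma adjusted p = 0.153). Rxrg, an RXR partner gene, had 12, 18 and 14 in double knockouts 1 to 3, against 30, 20 and 36 in controls 1 to 3 (limma adjusted p = 0.0884). Nrip1, a cofactor gene that binds liganded receptors and is more abundant, had 542, 541 and 532 in double knockouts 1 to 3, against 400, 475 and 396 in controls 1 to 3 (0.35 ± 0.10, limma adjusted p = 0.0501).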
